A study of Mus musculus with 6 samples.

Results

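Gata6, Prg4, F5, F10, Garnl3, Lrg1, Nt5e and Emr1 are genes by which the large macrophages of the peritoneal cavity are commonly recognised, and these 8 were chosen by name. All 8 were found among the 23946 gene symbols of the deposited table, and all 8 reached 1 FPKM (fragments per kilobase of transcript and 1000000 aligned reads) in at least 1 library, as did 13064 symbols in all, which are called expressed genes here. The 8 genes did not move as 1 group in these libraries. Gata6 was high only in the omentum after tumor cell injection, and F10 and Emr1 peaked at 24 h in both tissues. Lrg1, like Gata6, was higher in every omental than in every mesenteric library, as were 16.7% of all expressed genes. Nt5e was lower in every omental library, as were 17.7%.

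Large peritoneal macrophages are resident, long-lived cells of the peritoneal fluid. GATA6 is the zinc finger transcription factor that sets their identity, and retinoic acid made by mesothelial and stromal cells, including WT1-positive cells of the omentum, maintains it. Small peritoneal macrophages derive from monocytes, carry MHC class II and do not need GATA6. Gata6 is also transcribed by mesothelial cells, so its RNA alone does not name a cell type.

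The libraries came from CD45+CD11b+F4/80+ cells sorted from dissociated omentum (OM) or mesentery (MY) of C57BL/6 mice, which the methods give as females of 6 to 8 weeks. Mice were naive, or had received the ID8 mouse ovarian cancer line, which derives from ovarian surface epithelium, by intraperitoneal injection 24 h or 7 d earlier. The table holds 1 column for each of the 6 conditions, treated here as 1 library. The methods describe 9 omenta processed in 3 pools of 3, without saying whether the pools are the 3 time points or replicates, and pooling is not stated for MY, so it is unclear whether a column holds 1 library or several. With 1 column per condition no value has a replicate error and no test between conditions was possible. The naive cells are described as taken before ID8 injection. The methods name PBS injection as a control in a parallel group, without saying whether the sequenced naive mice had it. The effect of an injection and that of ID8 cells thus cannot be told apart, and cells of the peritoneal fluid were not analysed here.

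FPKM are given per length, so levels of different genes can be set side by side, but the number of reads behind a value and thus its counting error are unknown. The FPKM of a library summed to between 526887 and 713863. Differences below are in log2(FPKM + 1), which understates the change of genes near or under 1 FPKM, and a difference of at least 2-fold on that scale was counted. The sort marker genes Ptprc (CD45), Itgam (CD11b) and Emr1 (F4/80) were present in all 6 libraries, at 20.5 FPKM or more. Genes of other cell types were present too. The 8 mesothelial genes measured summed to between 99.3 and 1016 FPKM in the OM libraries and to between 0.92 and 1.33 in the MY libraries, and the 6 T cell genes to between 26.8 and 134.0 in OM and between 566.0 and 1145 in MY. In these bulk libraries fewer cells of a type and less RNA per cell cannot be told apart.

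Between OM 24 h and OM naive, 5 of the 8 genes were at least 2-fold higher (Gata6, F10, Garnl3, Lrg1 and Emr1), against 11.9% of all expressed genes, and 0 were at least 2-fold lower, against 6.45%. Between OM 7 d and OM naive, 3 were higher (Gata6, F5 and Garnl3), against 11.0%, and Prg4 was lower, against 1.96%. Only Gata6 and Garnl3 passed the 2-fold mark at both times in the omentum. F10, Lrg1 and Emr1 were back within 0.41 of the naive level on the log2 scale at 7 d.

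In the mesentery, 4 of the 8 genes were at least 2-fold higher at 24 h than in naive mice (F5, F10, Lrg1 and Emr1), against 2.80% of all expressed genes, and 0 were lower, against 1.52%. At 7 d, 0 genes passed in either direction, against 0.498% higher and 2.29% lower. The median difference of the 8 genes was 1.66 at 24 h in the omentum and 1.04 in the mesentery, and 0.31 and 0.13 at 7 d, while the median of all expressed genes lay between 0.0 and 0.02 in these comparisons. The list of 9 macrophage genes (Csf1r, Cd68, Mertk, Fcgr1, Cd14, Lyz2, C1qa, C1qb and C1qc) moved at the same time: its mean difference was 2.30 at 24 h in the omentum and 1.14 in the mesentery, and -0.38 and 0.22 at 7 d. Whether this shift accounts for any member's difference was not tested.

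**Figure D1:**
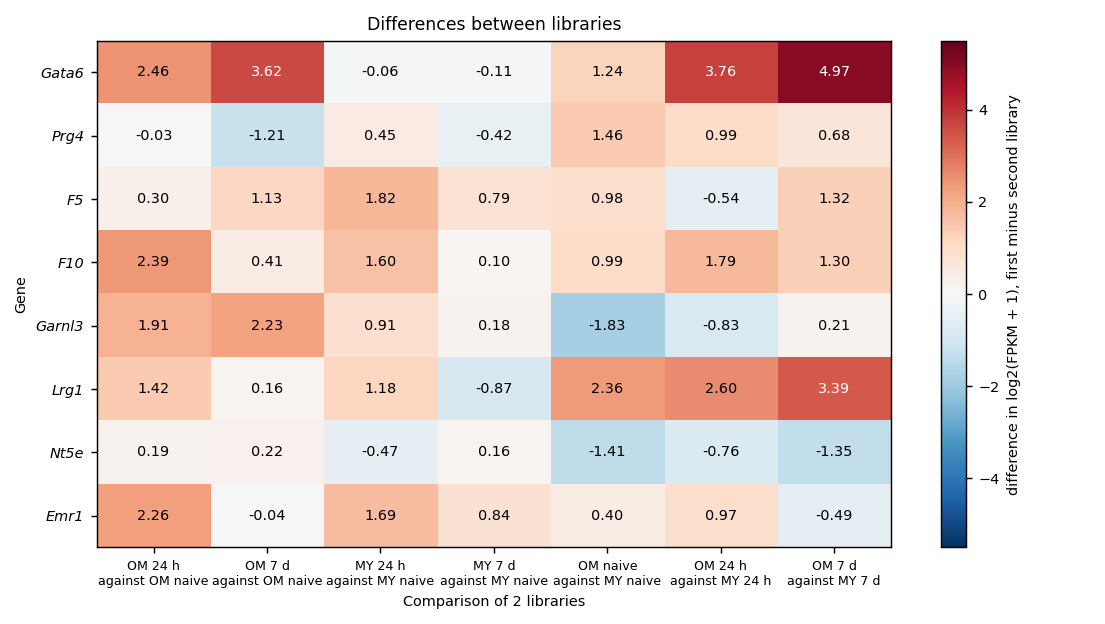
Differences in log2(FPKM + 1) of the 8 genes (rows) in 7 comparisons of 2 libraries (columns), as first minus second library, with red for higher and blue for lower in the first. The Gata6 row runs from -0.11 (MY 7 d against MY naive) to 4.97 (OM 7 d against MY 7 d), and 0 of the 7 columns hold 8 genes past 2-fold.

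Gata6 spans chromosome 18 bases 11052508 to 11085633 (plus strand, build NCBIM37 or mm9, as for all positions here). Its level was 2.06 FPKM in OM naive, 15.9 in OM 24 h and 36.7 in OM 7 d, and 0.298, 0.245 and 0.201 in MY naive, MY 24 h and MY 7 d. Every OM library was thus above every MY library, and within the omentum the order was naive, 24 h and 7 d. In OM naive 23.1% of the expressed genes stood below Gata6, and in OM 7 d 79.5% did, whereas in the MY libraries between 6.38% and 7.27% did.

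Against OM naive, Gata6 was 7.70-fold higher in FPKM at 24 h (log2 difference 2.46) and 17.8-fold higher at 7 d (log2 difference 3.62). At 7 d only 63 of the 13064 expressed genes had a larger difference in that direction. In the mesentery the differences were -0.06 and -0.11. The OM library was above the MY library of the same time by 1.24 in naive mice, by 3.76 at 24 h and by 4.97 at 7 d. The naive difference rests on low values, and became 2.44 with a pseudocount of 0.1 and 0.42 with 5.

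At 24 h in the omentum Gata6 and all 9 macrophage genes were at least 2-fold higher, whereas at 7 d Gata6 was and 0 of the 9 were. Csf1r, the receptor of the macrophage growth factor CSF1, stood at 131.9, 569.8 and 102.8 FPKM in OM naive, OM 24 h and OM 7 d, so that there were 63.9, 35.9 and 2.80 FPKM of Csf1r for each FPKM of Gata6. On the log2 scale Gata6 was 0.16 beyond the mean of the macrophage list at 24 h in the omentum and 4.0 beyond it at 7 d. At 24 h in the mesentery, Gata6 was at -1.2 relative to that mean. The 24 h value in the omentum rests on a low naive level, as the Gata6 difference became 2.89 with a pseudocount of 0.1 and 1.56 with 5. In OM 7 d Gata6 stood above Emr1, at 1.39 times its FPKM, while in OM naive it stood at 0.0754 times.

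Mesothelial genes were also higher in the omentum at both times. Wt1, a transcription factor of the mesothelium, stood at 2.16, 25.2 and 38.1 FPKM in the same libraries, or 1.04, 1.58 and 1.04 FPKM for each FPKM of Gata6. Upk3b, a uroplakin of mesothelial cells, stood at 23.7, 214.6 and 259.4 FPKM, and Msln, which encodes the surface protein mesothelin, at 5.27, 53.8 and 59.2. For each FPKM of Gata6 there were 11.5, 13.5 and 7.06 FPKM of Upk3b and 2.55, 3.39 and 1.61 of Msln, so Gata6 gained on both between 24 h and 7 d. Of the 8 mesothelial genes measured (Msln, Upk3b, Upk1b, Wt1, Krt8, Krt18, Krt19 and Lrrn4), 7 were at least 2-fold higher at 24 h in the omentum and 8 at 7 d, with median differences of 3.09 and 3.33. All 8 were below 1 FPKM in each MY library, where Wt1 was listed at 0 in MY naive and MY 7 d, Upk1b in MY naive and Lrrn4 in MY 24 h. ID8 cells also come from the surface epithelium of the ovary, and the keratins Krt8 and Krt18 were on this list. The 6 fibroblast genes summed to 344.6, 221.5 and 1190 FPKM in the OM libraries and to 3.1 or less in MY. The part of mesothelial, fibroblast or ID8 RNA in the Gata6 level was not tested.

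**Figure D2:**
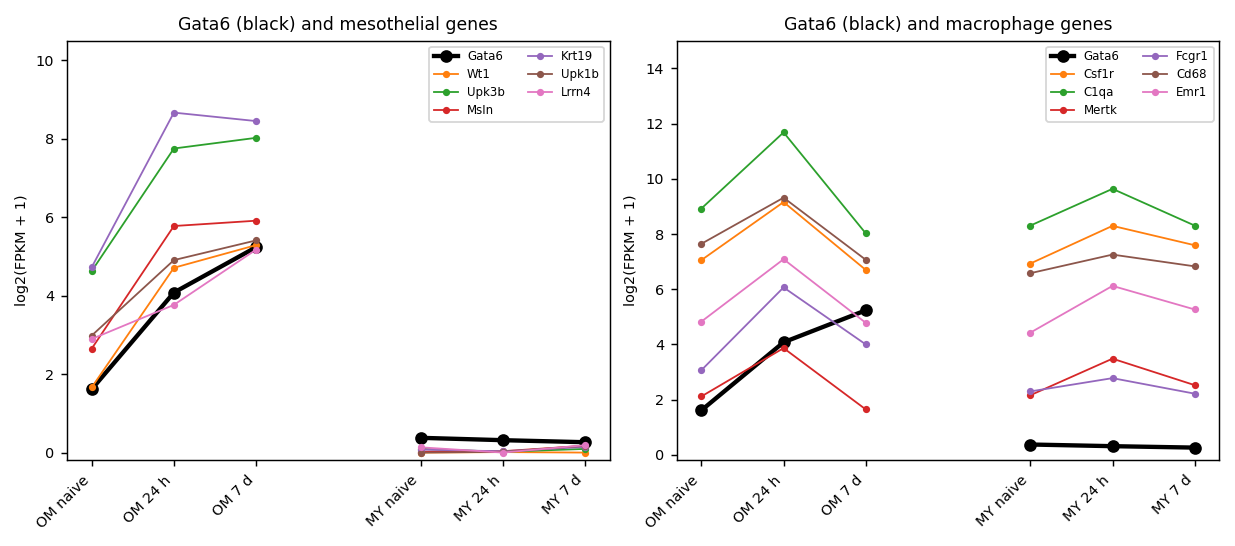
Level in log2(FPKM + 1) of Gata6 (black) in each of the 6 libraries beside 6 mesothelial genes (left) and 5 macrophage genes with Emr1 (right), with 1 point per library and lines joining the libraries of a tissue. Gata6 and Wt1 are both highest in OM 7 d, at 36.7 and 38.1 FPKM, while Csf1r, C1qa, Mertk, Fcgr1, Cd68 and Emr1 are highest at 24 h in both tissues.

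The genes most like Gata6 over the 6 libraries, by the Pearson correlation of log2(FPKM + 1), were Efhd1 (0.9997), Wnt5a (0.9996) and Podxl (0.9987). Efhd1 encodes a mitochondrial calcium-binding protein, Wnt5a a secreted Wnt ligand and Podxl the sialomucin podocalyxin, which is also found on mesothelium. Podxl stood at 1.40, 20.5 and 45 FPKM in the OM libraries and at 0.038 FPKM or less in the MY libraries. Of 9942 genes compared, 364 had a correlation above 0.95 with Gata6. The 6 libraries are 2 tissues at 3 times without replicates, so these values describe a shared order of levels and carry no test.

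Within the GATA family, Gata4 was listed at 0 in OM naive and stood at 25.9 FPKM in OM 24 h and 33.1 in OM 7 d, and at 0.177 FPKM or less in the MY libraries. Gata4 also encodes a factor of mesothelial and gonadal cells. The cofactor Zfpm2 was at 0.153, 1.68 and 4.12 FPKM in the OM libraries and at 0.0165 or less in the MY libraries. Gata3, a factor of T cells, had another order, with 14.6 FPKM in MY naive and 5.39 in OM naive. Zfpm1, the cofactor of GATA1 in blood cells, was lower at 24 h than in naive mice in the omentum (4.85 against 20.8 FPKM) and in the mesentery (10.9 against 23.1 FPKM). This list had 8 genes, Gata6 included. At 7 d in the omentum 5 were at least 2-fold higher (Gata1, Gata4, Gata5, Gata6 and Zfpm2), against 11.0% of all expressed genes. All of these but Gata6 were below 1 FPKM in OM naive. In the mesentery 0 were higher at 7 d, against 0.498%.

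Among 10 genes of retinoic acid supply and sensing, Wt1 included, 4 were at least 2-fold higher at 24 h in the omentum and 5 at 7 d. The shares of all expressed genes were 11.9% and 11.0%. In the mesentery 1 and 0 were higher, against 2.80% and 0.498%. Aldh1a1, a retinaldehyde dehydrogenase, stood at 1.83, 44.6 and 173.4 FPKM in OM naive, OM 24 h and OM 7 d, against 0.199 or less in the MY libraries. Stra6, the cell surface receptor for retinol-binding protein, stood at 0.561, 30.9 and 44.5 FPKM in the OM libraries. Mesothelial genes were higher in the omentum at both times too. The part of mesothelial or fibroblast RNA in the levels of this list was not tested. Aldh1a2, which makes retinoic acid as well, was present in all 6 libraries and higher in MY, at 59.0 to 80.7 FPKM against 26.8 to 35.4 in OM. The nuclear receptor Rxra was also higher in MY, at 34.4 to 72.5 FPKM against 5.82 to 12, whereas Rarb, a receptor gene that retinoic acid induces, stayed between 1.10 and 2.83 FPKM in all libraries.

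Prg4 encodes lubricin, a secreted mucin-like glycoprotein, and spans chromosome 1 bases 152296542 to 152313295 (minus strand). Its level was 5.68, 5.56 and 1.89 FPKM in OM naive, OM 24 h and OM 7 d and 1.42, 2.31 and 0.807 FPKM in the MY libraries in the same order. It was lowest at 7 d in each tissue, and OM 7 d overlapped the MY range. At 24 h in the omentum, where Emr1 was 4.93-fold higher, Prg4 had a log2 difference of -0.03, and at 7 d by -1.21. Its exons share 201 of 4280 bases with exons of Tpr on the other strand, which stood between 18.6 and 26.5 FPKM, and the sources used here do not state whether strand was used. The genes most like Prg4 were Ear2 (0.9975), a ribonuclease gene of eosinophils and macrophages, and Try5 (0.9894) and Clps (0.9874), which encode the pancreatic digestive proteins trypsin and colipase. Clps stood at 27.9, 27.0 and 1.85 FPKM in the OM libraries and at 6.16 or less in MY. What RNA of pancreas or eosinophils adds to Prg4 was not tested.

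F5 and F10 encode coagulation factors V and X, the cofactor and the protease of the complex that converts prothrombin to thrombin. F5 spans chromosome 1 bases 166081969 to 166150408 (plus strand). It stood at 1.23, 1.74 and 3.88 FPKM in OM naive, OM 24 h and OM 7 d, whereas MY naive, MY 24 h and MY 7 d had 0.126, 2.97 and 0.953 FPKM. The omental maximum was at 7 d and the mesenteric one at 24 h, and the tissues overlapped. The log2 difference against naive was 0.30 and 1.13 in the omentum and 1.82 and 0.79 in the mesentery. Of the 7 eosinophil genes, Ccr3, a chemokine receptor gene named here after its values were seen, had its peaks in the same libraries, with 0.172, 0.0934 and 8.86 FPKM in OM and 0.371, 10.4 and 4.54 in MY. Siglec5, also named after its values were seen, peaked there as well, with 0.639, 2.47 and 5.68 FPKM in OM and 0.523, 6.32 and 2.19 in MY. Others on the list did not, as Ear2 stood at 123.6, 125.6 and 37.2 FPKM and Il5ra at 23.2, 5.34 and 15 in OM, and the granule gene Epx was at 0.0303 FPKM or less in all 6 libraries. The list summed to 150.4, 134.5 and 75 FPKM in OM and to 35.6, 71.1 and 35.9 in MY. Ear2 was its highest gene in every library. Of 6 expressed, 3 were at least 2-fold higher at 7 d in the omentum (11.0% of all expressed genes) and 1 lower (1.96%). At 24 h in the mesentery 2 were higher (2.80%) and 0 lower (1.52%). At 24 h in the omentum 1 was higher (11.9%) and 1 lower (6.45%), and at 7 d in the mesentery 2 were higher (0.498%) and 0 lower (2.29%). The part of eosinophil RNA in the F5 level was not tested. Of the 5 platelet genes, 4 stayed at 1.31 FPKM or less in every library, while Pf4, which macrophages can also express, stood at 167.4, 601.1 and 25.8 FPKM in OM and 2.79, 23.9 and 1.52 in MY.

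F10 spans chromosome 8 bases 13037308 to 13056676 (plus strand). Its FPKM was 3.50 in OM naive, 22.6 in OM 24 h and 4.97 in OM 7 d, and 1.26 in MY naive, 5.84 in MY 24 h and 1.42 in MY 7 d. It was highest at 24 h in each tissue, 6.46-fold above naive in the omentum (log2 difference 2.39) and 4.64-fold above naive in the mesentery (1.60). At 24 h it was 0.09 beyond the mean of the macrophage list in the omentum and 0.45 beyond it in the mesentery. Both values rest on low naive levels. In the omentum the F10 difference became 2.66 with a pseudocount of 0.1 and 1.70 with 5. In the mesentery it became 2.13 and 0.79. For each FPKM of F10 there were between 20.7 and 37.7 FPKM of Csf1r in the OM libraries and between 53.6 and 135.7 in the MY libraries.

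F7, the gene of coagulation factor VII, ends 1498 bases before F10 on the same strand. It stood at 0.479, 9.14 and 0.67 FPKM in the OM libraries and at 0.0533, 1.22 and 0.221 in the MY libraries, so it was also highest at 24 h in each tissue. It was at 0.405 times the FPKM of F10 in OM 24 h and at 0.137 times in OM naive. F13a1, which encodes the subunit of factor XIII made by monocytes and macrophages, was again highest at 24 h, with 64.6, 156.5 and 48.5 FPKM in OM and 4.43, 13 and 6.44 in MY. Thbd, the thrombin receptor thrombomodulin, went the other way in the omentum, with 23.6, 10.6 and 50.1 FPKM. Plaur, the urokinase receptor gene, stood between 80.3 and 110.6 FPKM in OM and between 14.5 and 21.6 in MY. F2 (prothrombin) and Proc (protein C), genes of the liver, were at 0.264 FPKM or less in all libraries. This list had 12 expressed genes, F5 and F10 included. At 24 h in the omentum 3 were at least 2-fold higher and 1 lower, against 11.9% and 6.45% of all expressed genes. In the mesentery 5 were higher and 0 lower, against 2.80% and 1.52%. F10 was among the higher genes in both tissues, and F5 in the mesentery.

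**Figure D3:**
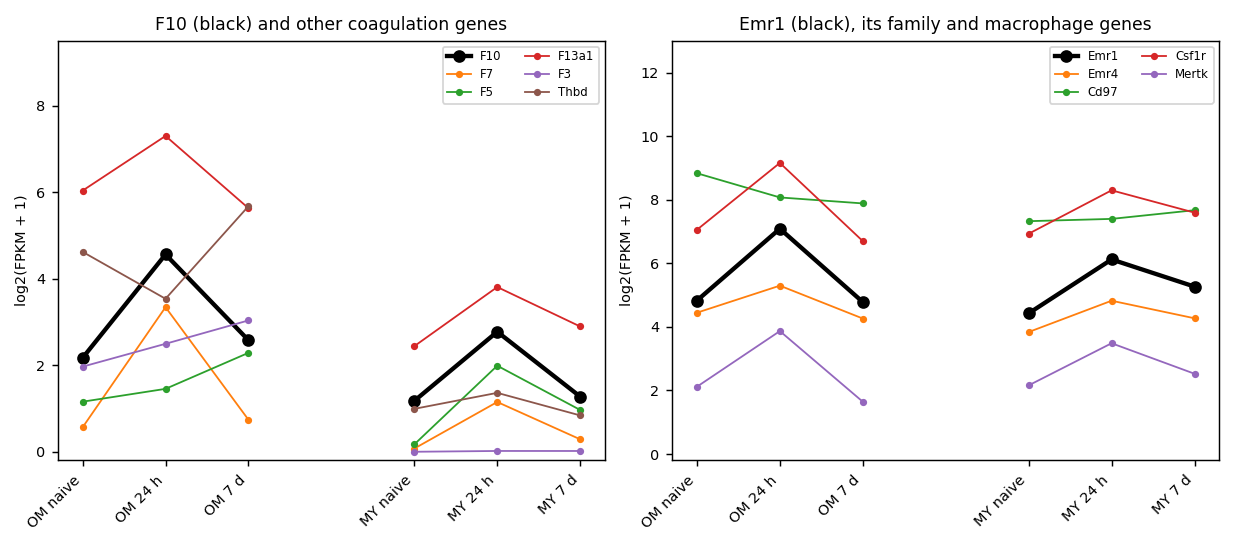
Level in log2(FPKM + 1) of F10 (black, left) beside other coagulation genes and of Emr1 (black, right) beside its family and macrophage genes, with 1 point per library and lines joining the libraries of a tissue. F10, F7, F13a1, Emr1 and Csf1r are highest at 24 h in each tissue, while Thbd is lowest at 24 h in the omentum and F3 is at or near 0 in the mesentery.

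Among the genes closest to F10 over the libraries were Cd302 (0.9953), a C-type lectin receptor gene of macrophages and monocytes, and Tmem219 (0.9931), and 77 genes were above 0.95. For F5 only 3 genes were above 0.95, Tnfaip3 (0.9664), the gene of the NF-kB inhibitor A20, Tmem106b (0.9541) and C1d (0.9514). F5 had no close companion among the 8 genes either.

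Garnl3 encodes a protein with a Rap and Ran GTPase activating domain and spans chromosome 2 bases 32841886 to 32987174 (minus strand). It stood at 0.122, 3.21 and 4.26 FPKM in OM naive, OM 24 h and OM 7 d, against 3.0, 6.5 and 3.55 FPKM in the MY libraries. OM naive was the lowest library by far, and the other 2 OM libraries lay within the MY range. The difference between the naive libraries was -1.83, so Garnl3 was the only gene of the 8, besides Nt5e (-1.41), that was at least 2-fold lower in OM naive. Against OM naive it was higher by 1.91 at 24 h and by 2.23 at 7 d. In OM naive only 3.85% of the expressed genes stood below it, and a value of this size depends on how low levels are treated: the naive difference became -3.80 with a pseudocount of 0.1 and -0.64 with 5. Among the 6 other Rap GTPase activating genes, Sipa1 was the highest in each library (82.1 to 144.9 FPKM), and Rap1gap was higher in OM, with 6.53 to 11.9 FPKM in OM and 0.872 to 1.0 in MY. The genes most like Garnl3 were Sh3bp4 (0.9850), Ncoa4 (0.9808), the ferritin cargo receptor, and Mfge8 (0.9792), which encodes a bridge protein for the uptake of apoptotic cells.

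Lrg1 encodes leucine-rich alpha-2-glycoprotein, a secreted protein of liver, neutrophils and inflamed endothelium that modifies TGF-beta signaling, and spans chromosome 17 bases 56259103 to 56261369 (minus strand). It was the highest of the 8 genes in every OM library, with 56.8 FPKM in OM naive, 153.7 in OM 24 h and 63.7 in OM 7 d. In MY it stood at 10.3, 24.5 and 5.17 FPKM, each of these below every OM library. It was higher at 24 h than in naive mice in both tissues (1.42 and 1.18), and the tissue difference ran from 2.36 in naive mice to 3.39 at 7 d. The 7 neutrophil genes measured had the same tissue order, with a summed level of 7479 to 19796 FPKM in OM and 219.8 to 879.3 in MY, and 3 of them (Ngp, Camp and Ltf) were below 1 FPKM in MY 7 d. Against OM naive, all 7 neutrophil genes were at least 2-fold higher at 24 h and 5 at 7 d, when their sum was highest and Lrg1 differed by 0.16. At 24 h in the mesentery, where Lrg1 was also higher, 1 neutrophil gene was at least 2-fold higher (Retnlg) and 3 were lower, and S100a8 stood at 28.0, 8.93 and 6.21 FPKM for each FPKM of Lrg1 in MY naive, MY 24 h and MY 7 d and at 53.2, 50.9 and 131.6 in the OM libraries. The part of neutrophil RNA in the Lrg1 level was not tested.

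Lrg1 was closest to Ifitm6 (0.9970), an interferon-induced transmembrane gene of myeloid cells, Tmcc2 (0.9960) and Gda (0.9956), which encodes guanine deaminase. Ifitm6 stood at 151.3, 280.0 and 164.0 FPKM in OM and at 37.0, 69.3 and 25.5 in MY. The 6 endothelial genes summed to 42.1, 9.23 and 32.8 FPKM in OM and to between 36 and 47.2 in MY. Pecam1, which leukocytes also carry, was the highest of them in each library (8.85 to 45.2 FPKM), Kdr stood between 0.157 and 4.53, and Cdh5 at 0.383 or less. The part of endothelial RNA in the Lrg1 level was not tested. Among the TGF-beta genes of the Lrg1 list, Acvrl1 stood at 15.3, 29.9 and 17.0 FPKM in OM and at 6.91, 11.9 and 11.6 in MY, and Tgfbr1 at 4.89, 25.0 and 10.9 in OM and 6.66, 6.97 and 8.82 in MY.

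Nt5e encodes CD73, the ectoenzyme that makes extracellular adenosine from AMP, and spans chromosome 9 bases 88222447 to 88266927 (plus strand). It stood at 3.42, 4.03 and 4.15 FPKM in OM naive, OM 24 h and OM 7 d, against 10.8, 7.51 and 12.2 FPKM in the MY libraries. Every OM library was below every MY library, and no difference against naive reached 2-fold in either tissue (0.19, 0.22, -0.47 and 0.16). In the 2 libraries of 24 h, where the macrophage list was up, the difference of Nt5e relative to the mean of that list was thus -2.12 in the omentum and -1.61 in the mesentery. CD73 is also carried by T and B cells. All 6 T cell genes were lower in every OM than in every MY library, while the 5 B cell genes summed to between 904.4 and 3967 FPKM in OM and between 524.3 and 1539 in MY. Closest to Nt5e over the libraries were Sars2 (0.9979), a mitochondrial seryl-tRNA synthetase gene, Vpreb3 (0.9961), a gene of developing B cells, and Slfn8 (0.9957). Vpreb3 stood at 4.07, 4.58 and 5.41 FPKM in OM and at 47.1, 25.7 and 65.4 in MY. The part of lymphocyte RNA in the Nt5e level was not tested.

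Of the 9 expressed genes of the adenosine list, Dpp4, which encodes the adenosine deaminase-binding protein CD26, shared the tissue order of Nt5e, with 10.6 to 28 FPKM in OM and 36.6 to 48.1 in MY. Entpd1, the gene of CD39, which makes the AMP that CD73 uses, was higher in OM, at 12.7 to 28.4 FPKM against 7.49 to 9.73. Slc29a1, a nucleoside transporter gene and the highest of the list, stood at 40.9 to 89.2 FPKM in OM and 44.9 to 61.6 in MY. The adenosine receptor gene Adora2b was higher in OM (4.98 to 10.4 FPKM) than in MY (1.11 to 1.80), and Adora2a was lowest in OM 24 h, at 7.41 against 14.6 to 32.8 FPKM in the other 5 libraries.

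Emr1 is the gene of F4/80, the adhesion receptor on which the cells had been sorted, and spans chromosome 17 bases 57498109 to 57622952 (plus strand). Its FPKM was 27.4, 135.0 and 26.5 in OM naive, OM 24 h and OM 7 d and 20.5, 68.6 and 37.5 in MY naive, MY 24 h and MY 7 d. It was highest at 24 h in each tissue, by 2.26 and 1.69 against naive, and 83 of the 13064 expressed genes had a larger difference in that direction in the mesentery. The differences at 7 d were -0.04 (omentum) and 0.84 (mesentery). The tissues overlapped. For each FPKM of Emr1 there were between 3.88 and 5.89 FPKM of Csf1r in all 6 libraries, while Csf1r itself ran from 102.8 to 569.8 FPKM.

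Within its family, Emr4 was also highest at 24 h in each tissue, with 20.8, 38.3 and 18.2 FPKM in OM and 13.3, 27.3 and 18.3 in MY. Cd97, which is found on most leukocytes, was instead highest in OM naive, at 454.8 FPKM. No 75-base window of the Emr1 transcript was shared with a coding transcript of another gene (0 of 3171), and of the other 7 genes only F10 had shared windows (5 of 2429, with Rgs7bp). The genes most like Emr1 were Man1c1 (0.9970), Vps26a (0.9954) and Ctns (0.9902), genes of Golgi mannose trimming, endosomal sorting and lysosomal cystine export.

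**Figure D4:**
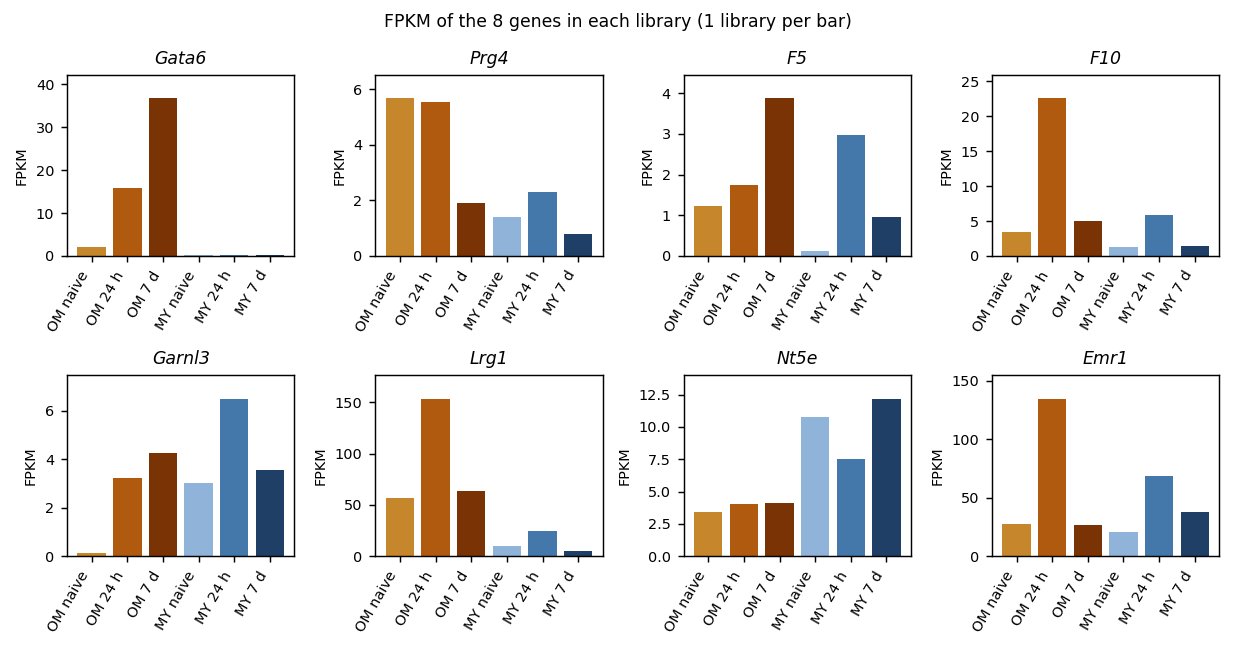
FPKM of each of the 8 genes in the 6 libraries, with 1 bar per library, OM in shades of brown and MY in shades of blue, and an axis from 0 for each gene. Gata6 is tall only in OM 24 h and OM 7 d, F10 and Emr1 peak at 24 h in each tissue, and Nt5e is higher in all 3 MY bars than in any OM bar.

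Taking the time points of a tissue side by side, Gata6 and Lrg1 were higher in every OM library than in every MY library, which holds for 16.7% of all expressed genes, and Nt5e was lower, which holds for 17.7%. With the 24 h libraries left out, a choice made after seeing the values, 5 genes were higher in OM (Gata6, Prg4, F5, F10 and Lrg1), against 25.1% of all expressed genes, and Nt5e was lower, against 26.0%. Between the naive libraries, 3 of the 8 genes were at least 2-fold higher in OM (Gata6, Prg4 and Lrg1), against 8.18% of all expressed genes, and 2 were lower (Garnl3 and Nt5e), against 8.05%. F5 and F10 lay just under the 2-fold mark, at 0.98 and 0.99.

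At 24 h, 3 genes were at least 2-fold higher in OM than in MY (Gata6, F10 and Lrg1), against 13.9%, and 0 were lower, against 10.2%. Prg4 and Emr1 stood just under it, at 0.99 and 0.97. At 7 d, 4 genes were higher (Gata6, F5, F10 and Lrg1), against 14.1%, and Nt5e was lower, against 4.99%. Emr1 had no difference of 2-fold between the tissues at any time.

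Among 17 other genes known from large peritoneal macrophages, 9 were at least 2-fold higher and 1 lower at 24 h in the omentum, with a median of 1.08. The shares of all expressed genes were 11.9% and 6.45%. In the mesentery 7 were higher and 0 lower, against 2.80% and 1.52%, with a median of 0.32. At 7 d, 6 were higher and 3 lower in the omentum, against 11.0% and 1.96%, and 1 and 0 in the mesentery, against 0.498% and 2.29%. They split as the 8 genes did. Tgfb2, which GATA6 is known to activate in these macrophages, had the omental order of Gata6, with 0.709, 4.26 and 8.62 FPKM in OM and 0.322 or less in MY. The mesothelial gene Wt1 had that order too, and the part of mesothelial or fibroblast RNA in the Tgfb2 level was not tested. Thbs1, the gene of thrombospondin, stood at 6.08, 42.9 and 23.0 FPKM in OM and at 2.57 or less in MY. Alox15, a lipoxygenase gene of large peritoneal macrophages and of eosinophils, was higher at both times in both tissues, with 5.03, 22.7 and 36.1 FPKM in OM and 1.88, 32.6 and 15.5 in MY.

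Surface protein genes of the list went different ways. Itga6, an integrin gene, stood at 5.62, 23.4 and 17.6 FPKM in OM, Cd93 at 2.17, 13.8 and 2.13 and Selp at 0.677, 2.56 and 1.14. Icam2 stood at 73.9, 32.1 and 32.2 FPKM in the OM libraries and at 32.9 to 56.7 in MY. Timd4, a receptor for phosphatidylserine, stood at 27.8, 13.5 and 5.30 FPKM in OM and at 23.5 to 38.8 in MY. Vsig4, a complement receptor, stood at 27.8, 37.2 and 1.53 FPKM in OM and at 0.0374 or less in MY. Icam2, Timd4 and Vsig4 were thus lower in OM 7 d, where Gata6 was at its highest, than in OM naive, and Itga6 was higher. Among the more abundant genes of the list, Saa3, an acute phase gene, stood at 194.1, 742.6 and 148.2 FPKM in OM and 14.6, 169.0 and 19.2 in MY, and Fn1, the gene of fibronectin, at 94.2, 279.3 and 57.6 in OM and 1.87, 21.4 and 2.99 in MY. Cxcl13, a B cell chemokine gene, stood at 92.8 to 119.8 FPKM in OM and 12.6 to 31.6 in MY.

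Genes of small peritoneal macrophages were counted in the same way. Of 12, 9 were at least 2-fold higher in OM naive than in MY naive, against 8.18% of all expressed genes. None was lower, against 8.05%, and the median was 1.22. All 5 B cell genes were at least 2-fold higher there too, with a median of 2.2, and the part of B cell RNA in these levels was not tested. At 24 h in the omentum 4 of the small macrophage genes were higher and 1 (Irf4) lower, against 11.9% and 6.45% of all expressed genes. At 7 d 0 were higher and 4 lower (Cd226, Retnla, Folr2 and Mrc1), against 11.0% and 1.96%, with a median of -0.54. In the mesentery 4 were higher and 0 lower at 24 h, against 2.80% and 1.52%. At 7 d there 0 were higher and 1 lower, against 0.498% and 2.29%. The median at 24 h was 0.55 in the omentum and 0.56 in the mesentery. Retnla, an alternative activation gene, stood at 3681, 2402 and 311.0 FPKM in OM, and Ccr2, the chemokine receptor of monocytes, at 136.7, 302.5 and 112.5. H2-Ab1, which encodes an MHC class II chain, stood between 7017 and 15011 FPKM in OM and between 4487 and 6223 in MY. Cd74 was listed at 0 in OM 24 h and at 11323 FPKM or more elsewhere, so it was left out of the counts with that library. At 7 d in the omentum the mean difference of the macrophage list was -0.38, the list of small peritoneal macrophage genes had a median of -0.54 and Gata6 was higher by 3.62.

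**Figure D5:**
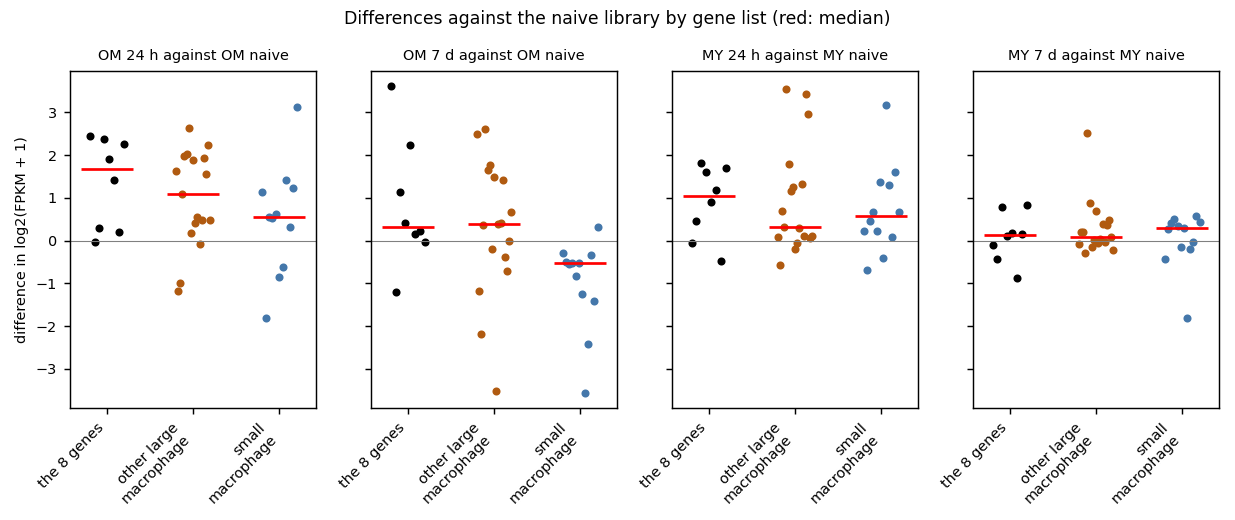
Differences in log2(FPKM + 1) against the naive library of the tissue (1 panel per comparison) for the 8 genes, 17 other genes of large peritoneal macrophages and 12 genes of small ones, with 1 point per gene and the median in red. Cd74 is left out of the OM 24 h panel because it was listed at 0 there. At 7 d the 17 other large macrophage genes of the omentum spread from -3.51 (Vsig4) to 2.62 (Alox15), and the medians of the 3 lists in the mesentery lie between 0.08 and 0.28.

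RefSeq promoter windows of 300 bases, from 250 before to 50 after a start site (GRCm38.p6), were matched for 5 of the 8 genes (F5, F10, Garnl3, Lrg1 and Nt5e), with 6 windows in all. Gata6, Prg4 and Emr1 had no entry. The GATA letters AGATAA or TGATAA, on either strand, were in 0 of the 6 windows and in 18.6% of all 32851 windows. No match says only that these letters are not in these windows.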

How the data were processed

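RNA of macrophages sorted from 2 tissues at 3 times was measured, and the table has 6 columns, 1 per condition, each treated as 1 library. Reads had been checked with FastQC 0.11.4 and aligned with STAR 2.4.2a to mm9 (submitters' processing notes), and the authors deposited FPKM per gene symbol, made with Cufflinks. Whether strand was used in counting is not given in the sources used here. FPKM hold no read counts, so depth is unknown and neither count models nor intervals were used.

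Differences were taken on log2(FPKM + 1) in Python 3.11.15 with numpy 2.4.6 and pandas 2.3.3, and drawn with matplotlib 3.10.9. A gene was called expressed from 1 FPKM in any library, and counted as changed from 2-fold, the fold that the study's methods set. Cd74, listed at 0 in OM 24 h alone, was left out of list counts with that library. Likeness to a member was the Pearson correlation over the 6 libraries among genes that reached 5 FPKM.

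The members, lists and rules were chosen with earlier results of these data known. Named are the 8 members, from each list the 4 most abundant and the 2 most different genes, the highest and lowest cell type genes, and the 3 genes most like each member. For F10, 1 of these 3 is not reported here. Further names were picked once their values had been seen. Alternatives were pseudocounts of 0.1 and 5, rescaling by the median ratio or to a sum of 1000000, other filters on low values and a rank correlation. The counting of changed genes and the rescaling were tested on simulated data. These held only well expressed genes, little noise and planted changes larger than 2-fold, so calls at low FPKM were not covered. Positions and shared bases came from NCBIM37 and GENCODE M1, which may differ from the annotation the authors used.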

Additional observations from a re-analysis of the deposited data

How the results depend on the processing

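No paired analysis was possible because a second library of any condition was not at hand. A log2 value was taken as unchanged within 0.58 (1.5-fold), since there is no replicate error. Of 224 recomputed log2 differences of the 8 genes, 194 stayed within that bound, 30 moved beyond it, and 0 of those at least 2-fold apart changed sign. By construction a pseudocount moves low levels most. With 0.1, Garnl3 differed by 3.90 at 24 h and 4.30 at 7 d in the omentum and by -3.80 between naive tissues, and F5 by 3.76 at 24 h and 2.22 at 7 d in the mesentery, 2.55 between naive tissues and 1.92 between tissues at 7 d. Gata6 differed between tissues by 2.44, 5.54 and 6.93 in time order, and the other large macrophage genes had medians of 1.23, 1.92 and 1.95. Then 5 of the 8 genes were 2-fold higher in naive omentum and 1 (F5) at 7 d in the mesentery.

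With 5, against OM naive, Gata6 differed by 1.56 and 2.56, Garnl3 by 0.68 and 0.85, F10 by 1.70 at 24 h and F5 by 0.51 at 7 d, and the other large macrophage genes had a median of 0.47 at 24 h. In the mesentery at 24 h F5 differed by 0.64 and F10 by 0.79. Between naive tissues the values were 0.42 for Gata6, 0.73 for Prg4, 0.28 for F5 and -0.64 for Garnl3. Gata6 differed by 1.99 between tissues at 24 h and by 3.00 at 7 d, when F5 differed by 0.58, F10 by 0.64, Lrg1 by 2.76 and the list median was 0.40. The genes 2-fold higher then numbered 1 at 7 d in the omentum, 1 at 24 h in the mesentery, 1 between naive tissues and 2 between tissues at 7 d, and those lower were 0 in the omentum at 7 d and 0 between tissues in naive mice and at 7 d.

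Rescaling to a sum of 1000000 shifted the median of all expressed genes by up to -0.27, between tissues at 24 h. Garnl3 then differed by 2.85 at 7 d in the omentum and by -2.48 between naive tissues, Gata6 by 5.60 between tissues at 7 d, and 1 gene was higher at 7 d in the mesentery and 2 lower in OM than in MY at 24 h; the cause was not tested. Without the 24 h libraries, an alternative chosen after seeing the data, 5 genes were higher in OM throughout, against 25.1% of all expressed genes. Of 14 shares of genes 2-fold apart under other filters, 12 stayed within 1.5-fold. With at least 1 FPKM required in every library, the share fell from 12.9% to 6.34% between OM 7 d and OM naive and from 19.1% to 10.3% between tissues at 7 d. By rank correlation, 0 of the 3 genes named for Gata6, 1 for F5 and 0 for Garnl3 were at the highest value.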
